A study of Arabidopsis thaliana with 109 samples.

Results

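The 9 genes described here carry the gibberellin signal in Arabidopsis thaliana from hormone to transcription. They are the 5 DELLA repressors GAI (AT1G14920), RGA (AT2G01570), RGL1 (AT1G66350), RGL2 (AT3G03450) and RGL3 (AT5G17490), the 3 receptors GID1A (AT3G05120), GID1B (AT3G63010) and GID1C (AT5G27320), and SLY1 (AT4G24210), the F-box protein that targets DELLAs for destruction. They were picked out by gene identifier from 33602 gene models, with earlier results of these data known. All 9 were measured in all 29 RNA-seq libraries. The series holds 109 samples of light-grown seedlings, kept in white light or moved to low R:FR light, a low ratio of red to far-red that mimics shade from neighbouring plants. Its 80 chromatin immunoprecipitation (ChIP) samples enter here only through 3 deposited lists of binding events of PIF7, a transcription factor that is active in shade.

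Table I holds Col-0 wild type in 3 groups of 3 libraries: low R:FR for 2 h, the same shade and then 2 h back in white light (called recovery), and white light throughout. Table II holds 4 groups of 3 libraries, at 5, 10 and 30 min of low R:FR and in white light, all of pif457_PIF7:PIF7:4xMYC, by its label a pif457 mutant carrying a MYC-tagged PIF7 (called PIF7-MYC here). All table II libraries therefore share the pif457 background, and none is wild type. Table III holds 4 groups of 2 libraries: pif457 at 30 min of low R:FR, pif457 in white light, and Col-0 at 30 min and in white light. The age of the seedlings and the number of plants per library are not given in the sources used here, so the p-values rest on the spread between libraries that may be technical repeats.

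Gibberellins are growth hormones. A GID1 receptor that has bound gibberellin grips a DELLA protein, and the SCF complex containing SLY1 then marks that DELLA for degradation by the proteasome. DELLAs have no DNA-binding domain of their own. They act by binding other proteins, among them the PIF transcription factors, which they hold off DNA, so fewer DELLA proteins let stems and petioles elongate, as they do in shade. DELLA levels are known to be set largely at the protein, and the values below are transcripts.

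Expression is given as TPM (a transcript's share of all transcripts of its library, corrected for length), so levels may be compared between genes. Changes are differences of log2(TPM + 1) with their standard error (SE), tested with limma over all genes of a table, and a gene is called raised or lowered at a Benjamini-Hochberg adjusted p under 0.05. TPM keeps no read depth, so the depth of each library is unknown. Between 18468 and 18981 genes reached 1 TPM in the libraries of table I, between 18098 and 19020 in those of table II and between 17714 and 19215 in those of table III. Ribosomal and organellar transcripts took 3.27 to 12.8%, 1.24 to 5.06% and 4.09 to 23.1% of TPM, with the highest share and the fewest genes in replicate 1 of pif457 at 30 min. The labelled tissue was checked by markers: 5 shoot genes summed to between 45225 and 77574 TPM, 6 root genes to between 415 and 1592 TPM, and 4 floral genes to between 0 and 5.60 TPM. Over all 11 comparisons limma called no shoot or floral marker (10 of 55 and 2 of 36 tests had an unadjusted p under 0.05). It called 3 root markers (22 of 66 tests under 0.05 unadjusted). Of 5 seed markers (25 of 55 tests) it called OLEO1 in recovery, at 8.69 ± 0.78 TPM, against 29.6 ± 14.0 TPM in white light (SD, n = 3 each). The shoot genes summed to 51374 to 59120 TPM at 2 h in wild type, against 64365 to 77574 TPM in white light. In wild type of table III they summed to 50363 and 45225 TPM at 30 min, against 60640 and 61028 TPM in white light. In the PIF7-MYC line at 30 min they overlapped white light. PIF7 was at 0.35 and 1.47 TPM in pif457 at 30 min and 1.24 and 0.84 TPM in pif457 in white light, against 21.6 and 23.4 TPM in wild type at 30 min and 28.0 and 25.4 TPM in wild type in white light. In the PIF7-MYC line PIF7 lay between 119 and 136 TPM in white light, where the wild type of table I had 50.8 to 54.3 TPM. These tables were normalized separately.

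RGA was the most abundant of the 9 transcripts in every table, with a mean over libraries of 39.4 TPM in table I, 74.5 TPM in table II and 70.5 TPM in table III. GAI, GID1A and SLY1 formed a middle group, with means between 17.2 and 30.7 TPM. Their ranges over libraries, which pool all light groups, overlapped in each table. Within each library of tables II and III GAI nonetheless read above SLY1, while in table I the order of these 2 varied between libraries. GID1C followed at 9.47, 11.6 and 9.48 TPM and GID1B at 8.88, 6.19 and 4.96 TPM in tables I, II and III. The ranges of GID1C and GID1B overlapped in table I and were apart in tables II and III. RGL1, RGL2 and RGL3 were lowest, with means between 2.31 and 5.12 TPM and overlapping ranges in each table. GAI and RGA together made up 77.5 to 88.9% of DELLA TPM per library in table I, 84.6 to 92.5% in table II and 88.5 to 92.9% in table III.

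GAI, the DELLA named for a dwarf, gibberellin-insensitive mutant, was the member that rose at 2 h of shade in wild type. It read 30.3, 34.7 and 38.7 TPM at 2 h, against 16.0, 13.4 and 17.1 TPM in white light. Every 2 h library lay above every white light library, at 2.23 times the mean (log2 difference 1.11, SE 0.16, limma adjusted p = 0.0079). GAI was the 1 member of 9 called raised, where 1.24% of all 25331 genes tested were raised and 0.734% lowered (1.97% in either direction). After 2 h back in white light GAI read 14.0, 15.9 and 18.3 TPM, within the range spanned by the white light libraries and just above it. It fell in recovery relative to 2 h of shade (log2 difference -1.06, SE 0.16, adjusted p = 0.0123), again as the 1 member lowered, where 0.746% of all genes were lowered and 0.359% raised (1.11% in either direction). Both of these comparisons share the 2 h libraries. The fall missed the threshold when 2 h replicate 2 or 3, or recovery replicate 1 or 2, was left out, with adjusted p between 0.0566 and 0.0632.

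RGA, the closest relative of GAI and the main brake on stem growth together with it, read 48.1, 46.0 and 45.4 TPM at 2 h, against 35.6, 37.1 and 37.3 TPM in white light. The groups did not overlap, but the difference missed the threshold (log2 difference 0.33, 95% interval 0.11 to 0.55, limma adjusted p = 0.139). In recovery RGA read 34.8, 36.4 and 33.6 TPM. RGL3, a DELLA linked to jasmonate defence signalling, read 5.82, 3.64 and 7.27 TPM at 2 h, against 3.54, 1.48 and 1.86 TPM in white light, and its interval was wide (log2 difference 1.01, 95% interval 0.23 to 1.78, adjusted p = 0.204). RGL1 read 3.02, 4.73 and 3.99 TPM at 2 h, against 1.94, 3.89 and 2.44 TPM in white light, and 6.94, 4.11 and 5.56 TPM in recovery. RGL2, a DELLA that restrains seed germination, stayed between 2.52 and 5.51 TPM in all 9 libraries. No member was called in recovery against white light, where limma called 0.711% of genes (0.395% raised and 0.316% lowered), and RGL1 was the 1 member with an unadjusted p under 0.05, as had 13% of all genes (log2 difference 0.81, SE 0.32, adjusted p = 0.318). The 5 DELLA transcripts together came to 94.3 ± 3.41 TPM at 2 h and 63.4 ± 0.33 TPM in recovery, against 61.4 ± 1.25 TPM in white light (SD, n = 3 each).

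The PIF7-MYC line was sampled over the first 30 min of shade. GAI read 25.2, 19.9 and 19.3 TPM in white light, 22.8, 23.3 and 24.6 TPM at 5 min, 28.0, 25.2 and 29.2 TPM at 10 min, and 40.7, 49.9 and 42.1 TPM at 30 min. The 5 min libraries lay inside the white light range, the 10 min libraries touched its upper end, and the 30 min libraries stood clear of all others. RGA read 71.0, 60.9 and 67.8 TPM in white light, 67.8, 66.9 and 67.1 TPM at 5 min, 74.2, 69.7 and 71.2 TPM at 10 min, and 86.8, 96.6 and 93.4 TPM at 30 min. Its 30 min libraries were likewise apart from the rest. RGL3 read 2.02, 3.08 and 1.98 TPM in white light, 4.94, 3.76 and 2.74 TPM at 5 min, 3.85, 2.76 and 4.20 TPM at 10 min, and 7.80, 8.87 and 7.52 TPM at 30 min. All 3 rose at 30 min, by 1.01 for GAI (SE 0.11, limma adjusted p = 0.000412), 0.47 for RGA (SE 0.06, adjusted p = 0.00166) and 1.44 for RGL3 (SE 0.20, adjusted p = 0.00247) on the log2 scale. With GID1A they were the 4 members of 9 raised at 30 min, where 3.8% of all 24589 genes tested were raised and 1.03% lowered (4.83% in either direction). No alternative setting or left-out library ended any of these 4 calls. Seed markers stood higher in the same libraries: the 5 summed to 163, 540 and 308 TPM at 30 min, against 69.6, 96.8 and 94.8 TPM in white light, and all 5 had an unadjusted p under 0.05 (median log2 difference 1.73), although limma called none. The 6 root markers summed to 882, 852 and 903 TPM at 30 min, against 415, 818 and 499 TPM in white light. Of these 6, 2 had an unadjusted p under 0.05 at 30 min, and limma called none there. At 10 min they summed to 988, 1077 and 1078 TPM, and 1 of the 6 was raised. The part of either marker set in the member values was not tested.

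RGL1 and RGL2 did not pass at any time in the PIF7-MYC line. RGL1 lay between 3.38 and 4.70 TPM at 30 min, against 1.97 to 3.03 TPM in white light (log2 difference 0.53, 95% interval 0.15 to 0.92, limma adjusted p = 0.114). RGL2 lay between 4.46 and 7.16 TPM at 30 min, against 2.89 to 4.58 TPM in white light, with an interval from -0.14 to 1.20. At 10 min RGL2 spread from 3.40 to 9.52 TPM within its group. The 5 DELLA transcripts together came to 96.5 ± 6.76 TPM in white light, 101 ± 1.76 TPM at 5 min, 113 ± 7.71 TPM at 10 min and 154 ± 12.2 TPM at 30 min (SD, n = 3 each).

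**Figure D1:**
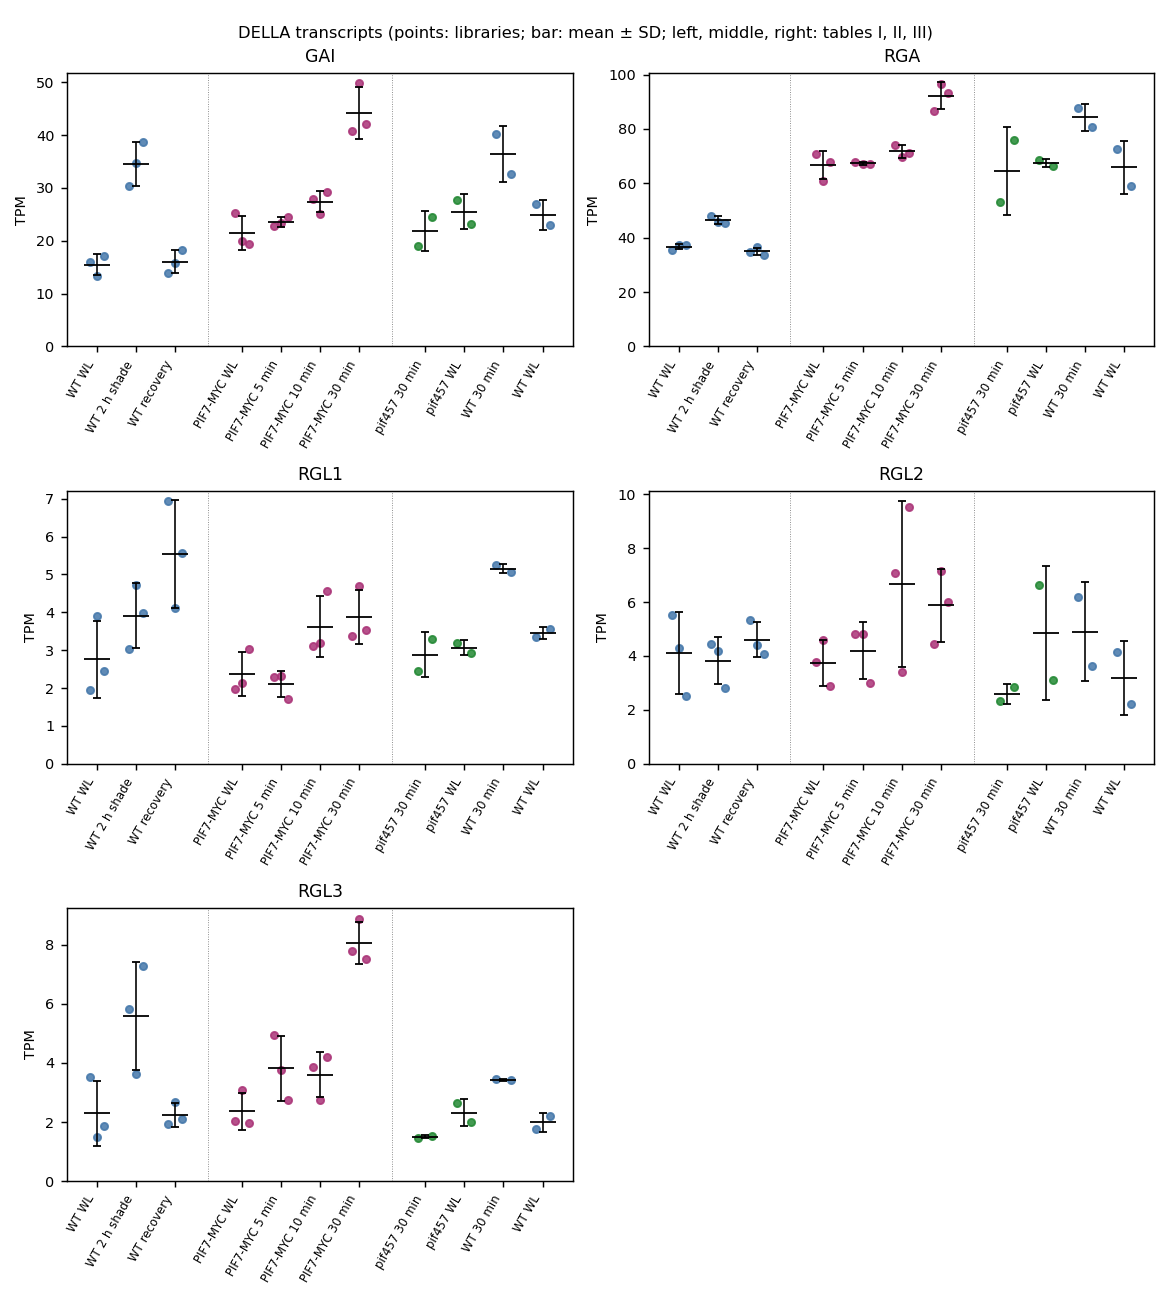
TPM of the 5 DELLA transcripts in each library (points), with the mean ± SD of each group (bars), for tables I, II and III from left to right in each panel. The 30 min libraries of the PIF7-MYC line lie at 40.7 to 49.9 TPM for GAI and 7.52 to 8.87 TPM for RGL3, above all other libraries of that table, and the vertical scales differ between panels.

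Of the receptors, GID1A alone was called, at 5 and at 30 min of shade in the PIF7-MYC line. It read 17.3, 18.1 and 19.2 TPM in white light, 24.7, 24.6 and 27.0 TPM at 5 min, 20.5, 22.1 and 21.5 TPM at 10 min, and 57.5, 53.2 and 63.4 TPM at 30 min. Each group was apart from the others, and the 10 min libraries lay between white light and 5 min. GID1A rose at 5 min (log2 difference 0.46, SE 0.07, limma adjusted p = 0.00889), as the 1 member raised, where 2.58% of genes were raised and 1.31% lowered (3.88% in either direction). At 10 min it did not pass (log2 difference 0.22, SE 0.07, adjusted p = 0.0866), and no member did, where 6.43% of all genes passed (4.19% raised and 2.24% lowered) and 5 members had an unadjusted p under 0.05, as did 26.9% of all genes. The difference between 10 and 5 min was not tested. At 30 min GID1A stood at 3.19 times its white light mean (log2 difference 1.62, SE 0.07, adjusted p = 9.85e-07), the largest log2 difference of TPM + 1 of any of the 9 genes in any of the 11 comparisons. As a ratio of mean TPM, RGL3 at 30 min was higher, at 3.42 times its white light mean. The share of GID1A in the TPM of the 3 receptors was 54.0 ± 0.57% in white light, 58.4 ± 1.49% at 5 min, 52.9 ± 2.85% at 10 min and 75.8 ± 0.36% at 30 min (SD, n = 3 each).

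In wild type GID1A was not called. At 2 h of shade it read 20.5, 20.2 and 26.0 TPM, against 29.9, 23.5 and 26.5 TPM in white light (log2 difference -0.26, 95% interval -0.59 to 0.08, limma adjusted p = 0.495). At 30 min in table III it read 22.8 and 20.0 TPM in wild type, against 19.3 and 16.5 TPM in white light (log2 difference 0.24, 95% interval -0.32 to 0.81, adjusted p = 1). That interval ends below the change in the PIF7-MYC line at the same time, 1.46 to 1.78, but the libraries are of different tables, and the difference between the lines was not tested.

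GID1B and GID1C, the other receptors, were less abundant, and limma called neither in any of the 11 comparisons. GID1C read 7.15, 6.11 and 9.83 TPM at 2 h in wild type, against 11.8, 12.7 and 11.4 TPM in white light, without overlap but short of the threshold (log2 difference -0.60, 95% interval -1.10 to -0.10, limma adjusted p = 0.247). In the PIF7-MYC line it ran the other way, at 9.44, 9.59 and 11.3 TPM in white light, 11.7, 12.5 and 12.7 TPM at 5 min, 12.9, 12.4 and 12.2 TPM at 10 min, and 12.1, 10.9 and 11.5 TPM at 30 min. Its 10 min difference of 0.29 had an adjusted p of 0.0585, and 0.0494 when only genes of mean TPM of at least 1 were tested. GID1B read 6.31, 4.39 and 8.14 TPM in recovery, against 9.70, 14.1 and 9.13 TPM at 2 h, and 8.13, 9.03 and 10.9 TPM in white light. The 3 receptors together came to 40.9 ± 3.84 TPM at 2 h and 48.0 ± 2.39 TPM in white light in wild type (SD, n = 3 each), and in the PIF7-MYC line to 33.7 ± 2.11 TPM in white light and 76.6 ± 6.60 TPM at 30 min.

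SLY1 did not pass in any of the 11 comparisons. Its largest difference, at 30 min in pif457 against white light in pif457, was -0.25 on the log2 scale with a 95% interval from -0.70 to 0.21. In the PIF7-MYC line all 12 libraries lay between 16.3 and 20.0 TPM, and its interval at 30 min ran from -0.10 to 0.26. In wild type of table I the 9 libraries spread from 17.2 to 35.7 TPM, with high and low libraries in every group.

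**Figure D2:**
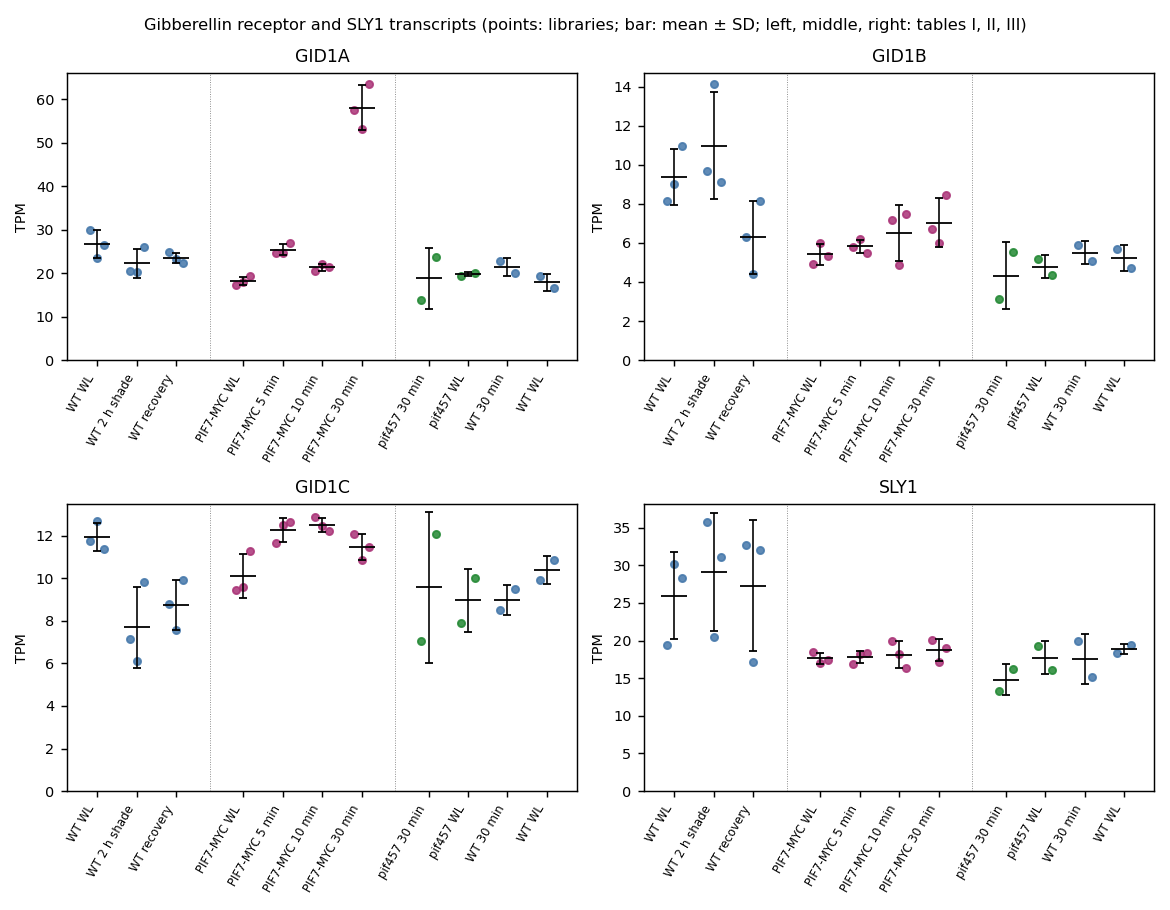
TPM of the 3 gibberellin receptors and SLY1 in each library (points), with the mean ± SD of each group (bars), for tables I, II and III from left to right in each panel. GID1A reaches 53.2 to 63.4 TPM at 30 min in the PIF7-MYC line and stays between 13.85 and 29.9 TPM in tables I and III.

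Table III sets pif457, a mutant of 3 PIF genes by its label, beside wild type. In pif457 GAI read 19.1 and 24.4 TPM at 30 min, against 27.8 and 23.1 TPM in white light. In wild type it read 40.2 and 32.7 TPM at 30 min, against 26.9 and 22.9 TPM in white light. The pif457 libraries overlapped and the wild type libraries were apart, but neither light response passed, nor did the difference between them (interaction -0.75 on the log2 scale, 95% interval -1.38 to -0.12, limma adjusted p = 0.335). In pif457 RGA read 53.2 and 75.9 TPM at 30 min, on either side of 68.4 and 66.4 TPM in white light. In wild type RGA read 87.7 and 80.8 TPM at 30 min, against 72.8 and 59.1 TPM in white light, without overlap.

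In pif457 RGL3 read 1.46 and 1.54 TPM at 30 min, against 2.64 and 1.99 TPM in white light. In wild type it read 3.44 and 3.41 TPM at 30 min, against 1.76 and 2.22 TPM in white light. The 30 min libraries lay below white light in pif457 and above it in wild type, without overlap, and the interaction did not pass (-0.97, 95% interval -1.58 to -0.36, limma adjusted p = 0.210). In wild type GID1C read 8.49 and 9.48 TPM at 30 min, against 9.93 and 10.9 TPM in white light, so lower without overlap. With 2 libraries a group, a lack of overlap is weak evidence, and limma called no member for either light response. The share of all genes without overlap was not computed, so members without overlap are not counted here. RGL1 was at 2.46 and 3.30 TPM at 30 min in pif457, and at 5.24 and 5.07 TPM at 30 min in wild type (log2 difference -0.67, SE 0.21, adjusted p = 0.121).

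In all, limma called no member for the 30 min response in wild type, where 0.119% of 24384 genes passed, all raised, or for that in pif457, where 0.0123% did (0.0082% raised and 0.0041% lowered). Nor did limma call a member for pif457 against wild type in white light, where 0.0287% of genes passed (0.0123% raised and 0.0164% lowered), or for the interaction, where 0.041% did (0.0082% raised and 0.0328% lowered). At an unadjusted p under 0.05 the counts were 2, 0, 0 and 2 members, where 8.73%, 9.4%, 4.24% and 11.6% of all genes had one. RGL3 was lowered in pif457 against wild type at 30 min (log2 difference -0.82, SE 0.19, adjusted p = 0.0455), as 1 member of 9, where 5.04% of genes were lowered and 0.209% raised (5.25% in either direction). GAI followed at -0.72 (SE 0.19, adjusted p = 0.0771). The median of all genes lay at -0.14 for the light response in pif457 and at -0.20 for the interaction, and in pif457 against wild type at 30 min it was -0.16 (-0.18 for genes of at least 5 TPM). The median of the 9 members was -0.15, -0.44 and -0.40 in the same 3 comparisons. Centring each library on its median ended the RGL3 call (adjusted p = 0.0837), and GAI then passed (adjusted p = 0.0236). The call of RGL3 was lost without either wild type library or without replicate 1 of pif457 at 30 min (adjusted p between 0.118 and 0.259), and without replicate 2 of pif457 at 30 min 6 members were lowered. In that last fit 7883 genes were lowered, 32.3% of the 24384 tested with all libraries, against 17 genes without replicate 1 of that group. Replicate 1 of that group had 23.1% ribosomal and organellar TPM, against 4.09 to 12.0% in the other libraries of table III. Of the 6 root markers, COBL9 and EXPA7 of root hairs were lowered in the same comparison, and the 6 summed to 728 and 1099 TPM in pif457 at 30 min, against 1404 and 1234 TPM in wild type at 30 min. The 5 seed markers summed to 68.3 and 49.1 TPM in pif457 at 30 min, 114 and 241 TPM in pif457 in white light, 97.8 and 57.4 TPM in wild type at 30 min and 57.4 and 35.8 TPM in wild type in white light. All 5 had an unadjusted p under 0.05 for the light response in pif457 (median log2 difference -1.66) and for pif457 against wild type in white light (median 2.33), and limma called none. The part of any of these in the member values was not tested, and fewer cells of a type and less RNA per cell cannot be told apart in whole seedlings.

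**Figure D3:**
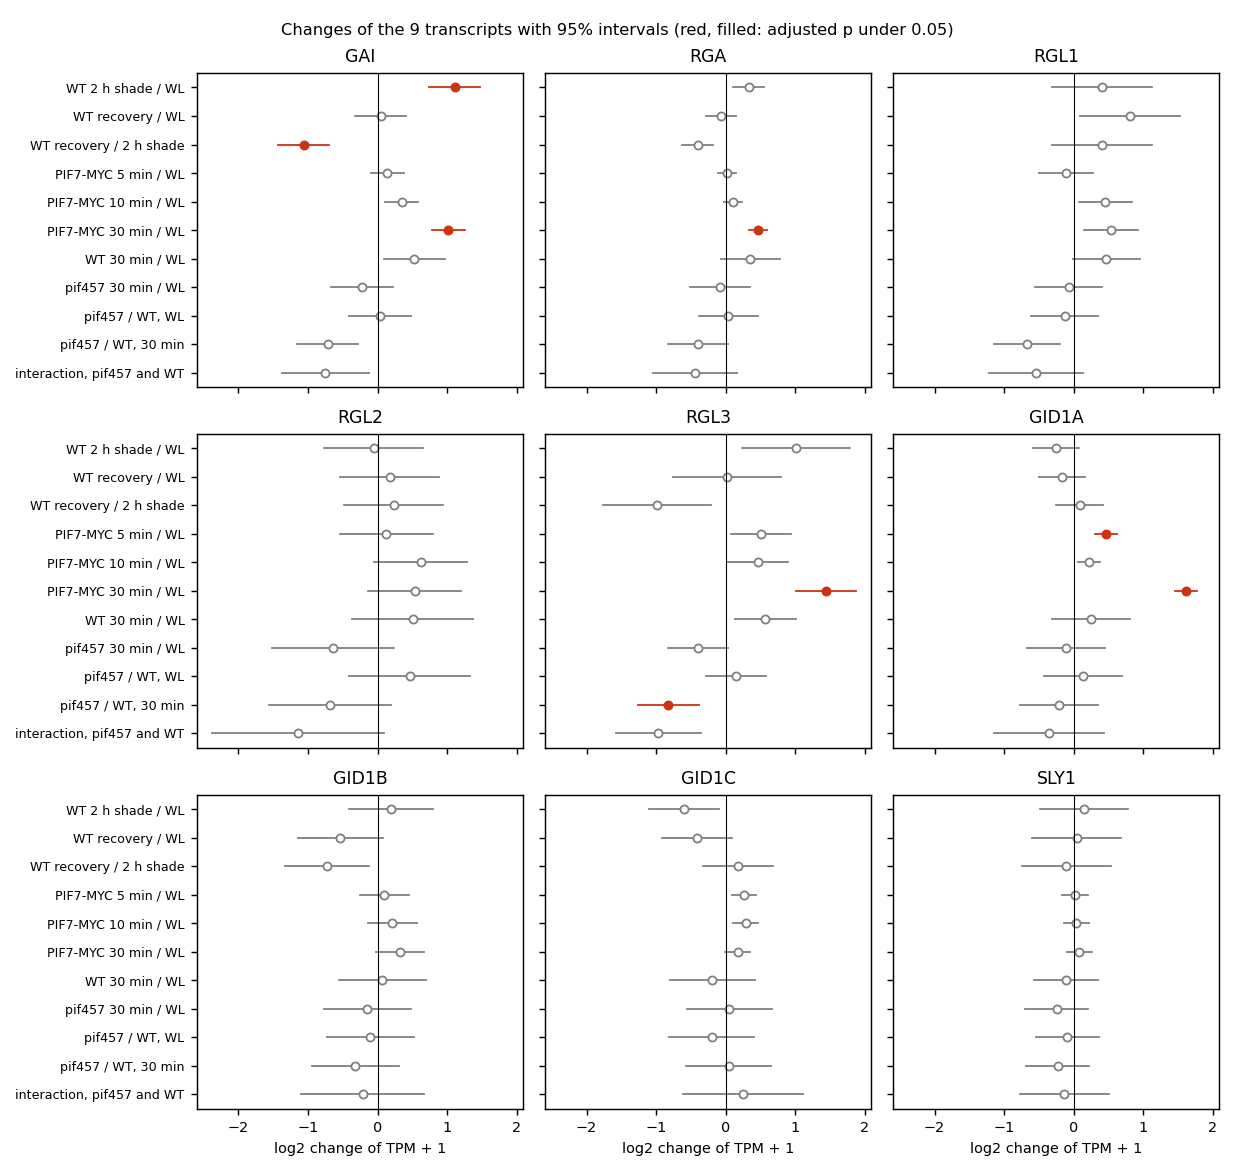
Difference of log2(TPM + 1) for each of the 9 genes (horizontal axis, with 95% interval) in the 11 comparisons (rows, with the group on top of the difference named first). Filled red points have an adjusted p under 0.05: GAI at 2 h and in recovery against 2 h, GID1A at 5 and 30 min and GAI, RGA and RGL3 at 30 min in the PIF7-MYC line, and RGL3 in pif457 against wild type at 30 min.

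PIF7 events were deposited as 3 lists, which give the authors' position on TAIR10, strength, fold over control, -log10 q and a short sequence (k-mer) that the event caller assigned to the event. The first compares MYC ChIP at ZT4 (4 h after lights on) in low R:FR with white light (998 events), the second the same time in low R:FR with an IgG control (1052 events), and the third 30 min of low R:FR with white light (1408 events). For the first list, the deposited description and the titles of the samples it names give opposite light for the same samples, so its direction is as the description states. An event is a position called on the authors' pooled comparison, with no replicate values, and no test was made. Gene positions and neighbours were taken from RefSeq's TAIR10.1 annotation, with only protein-coding genes counted as neighbours or nearest genes.

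GAI, RGA and GID1A had an event within 3 kb in all 3 lists. RGL3 joined them in the IgG and 30 min lists, and GID1B in the IgG list. That made 3, 5 and 4 of the 9 genes, where 6.4%, 6.06% and 8.67% of 27444 protein-coding genes had such an event. RGL1 had an event between 3 and 5 kb away in the 30 min list, and RGL2, GID1C and SLY1 had none within 5 kb in any list. None of these positions lay inside an annotated protein-coding gene. The k-mers below are those of the first list, for the 4 positions within 3 kb of a member where the k-mer spans the hexamer and its flanks. They are shown because each holds a hexamer known to be bound by PIFs, the G-box CACGTG or its variant CACATG, given in capitals with the flanking bases in lower case, on the strand the list marks as plus.
GAI, chromosome 1, position 5146733: attCACGTGgcc
GAI, chromosome 1, position 5148010: aatCACATGgga
RGA, chromosome 2, position 259132: taaCACGTGgatc
GID1A, chromosome 3, position 1435607: tatCACGTGgcag

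Both GAI positions lay in the gap between AT1G14910 and GAI, with GAI the nearest gene. At 5146733 the G-box event ranked 439 of 998 by strength, with a fold of 3.7 and a -log10 q of 38.3. It recurred at the same base in the IgG list (rank 366 of 1052) and at 5146729 in the 30 min list (rank 664 of 1408). The second position, within 1 kb of GAI, was at 5148010 with CACATG in the first list and at 5148072 and 5148076 with CACGTG in the IgG and 30 min lists. Its ranks were lower, at 621, 839 and 729. A further event, at 5147864, was in the IgG list alone (rank 995). Farther out, between 3 and 5 kb from GAI and nearest to AT1G14910, stood a stronger G-box event at 5145790 to 5145793 that ranked 119, 109 and 143 in the 3 lists.

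At RGA a G-box event lay at 259119 to 259132 on chromosome 2 in all 3 lists, between RGA and AT2G01580 and within 3 kb of RGA, the nearest gene. It ranked 295 of 998, 273 of 1052 and 379 of 1408, with folds of 4.6, 6.5 and 4.5. The event at RGL3 lay within 1 kb of the gene on chromosome 5, at 5766613 in the IgG list (rank 797) and at 5766616 in the 30 min list (rank 637). Its k-mer, ACGTGa, holds the G-box without its leading C. No event near RGL3 was in the first list.

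Of the events within 3 kb of the 9 genes, the strongest in each list was at GID1A, within 1 kb of it on chromosome 3, between AT3G05110 and GID1A. It ranked 53 of 998 at position 1430325 and 47 of 1052 at 1430349, with folds of 5.5 and 9.3. In the 30 min list it stood as a pair of events, at 1430352 (rank 188 of 1408, fold 8.9) and at 1430245 (rank 479, fold 9.4). Its k-mer was gCACGT in the IgG list and at 1430352, and the caller assigned none at the other positions. The G-box event printed above for GID1A, at 1435599 to 1435607, lay between AT3G05130 and the kinase gene RBK2, with RBK2 the nearest gene and AT3G05130 between it and GID1A. The event at GID1B, at 23289023 on the same chromosome, was among the weakest of the IgG list (rank 978 of 1052, -log10 q 2.13).

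Over each whole list, a k-mer holding CACGTG was given to 79.7%, 62.5% and 69.9% of events, and one holding CACATG, on either strand, to 3.01%, 9.6% and 13.1%. The G-box k-mers near GAI and RGA are thus of the commonest kind in the lists. The 4 genes raised at 30 min in the PIF7-MYC line are the 4 with an event within 3 kb in the 30 min list. Within 1 kb RGA was not among them, and within 5 kb RGL1, which was not called, was. Events and transcripts come from the same tagged construct, and whether an event bears on a change was not tested.

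**Figure D4:**
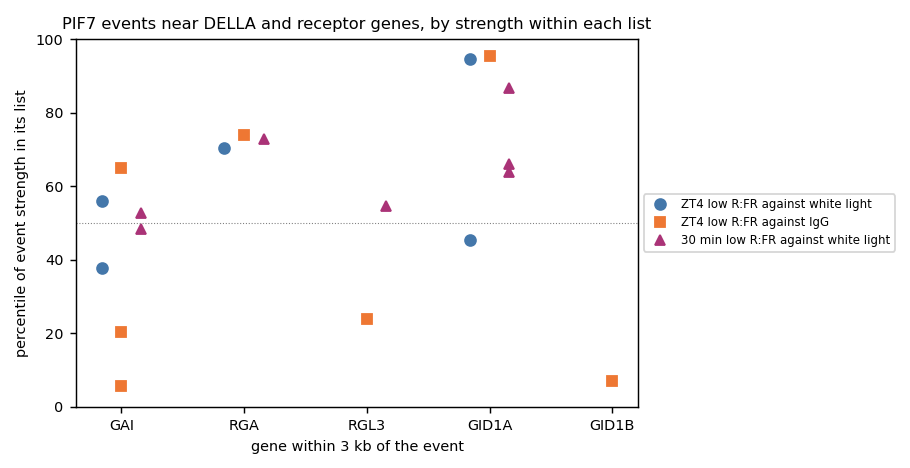
Percentile of strength (vertical axis, 100 being the strongest) of each PIF7 event within 3 kb of 5 genes (horizontal axis), within each of the 3 deposited lists (symbols). The event at GID1A is at the 94.7 and 95.6 percentile of the lists at ZT4, and the event at GID1B at 7.03.

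Genes around this module were read from lists fixed by name, drawn up with earlier results of these data known. Of 14 genes of gibberellin synthesis, 11 were measured above 0 in table I, and GA20OX1, a 20-oxidase of late synthesis, was the 1 raised at 2 h in wild type. It stood at 8.87 ± 2.45 TPM at 2 h and 0.76 ± 0.36 TPM in white light (SD, n = 3 each; log2 difference 2.48, limma adjusted p = 0.00424) and fell in recovery to 1.98 ± 0.65 TPM, against the 2 h level (adjusted p = 0.0371). Of 6 breakdown genes measured, GA2OX6, a 2-oxidase that inactivates gibberellins, was raised alongside, at 24.0 ± 2.94 TPM at 2 h and 2.98 ± 1.36 TPM in white light (adjusted p = 0.00486), and it too fell in recovery, to 3.56 ± 1.75 TPM (adjusted p = 0.00831). GA20OX2 read 0.84 ± 0.05 TPM in recovery and 6.67 ± 1.43 TPM at 2 h (adjusted p = 0.061). In the PIF7-MYC line at 30 min neither oxidase was called: GA20OX1 was at 0.42 ± 0.04 TPM and GA2OX6 at 2.66 ± 0.10 TPM, against 0.91 ± 0.30 and 1.93 ± 0.64 TPM in white light. GA3OX1, which makes bioactive gibberellin, rose there (log2 difference 1.18, adjusted p = 0.00547). Earlier in that line 1 synthesis gene was raised at 5 min, where 2.58% of all genes were. At 10 min 1 synthesis gene and the breakdown gene GA2OX8 were raised, where 4.19% of all genes were. In table III no gene of synthesis or breakdown was called by limma in any comparison, and at an unadjusted p under 0.05 the wild type light response held 2 synthesis genes and 1 breakdown gene.

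Of 20 proteins known to bind DELLAs, 3 transcripts rose and 2 fell at 2 h in wild type (median log2 difference 0.04, against -0.01 over all genes). Of all genes, 1.24% were raised and 0.734% lowered there. HFR1, an atypical HLH protein that restrains shade growth, stood at 48.1 ± 1.03 TPM at 2 h and 6.33 ± 1.06 TPM in white light (SD, n = 3 each; limma adjusted p = 0.00105). JAZ1, a jasmonate repressor, rose by 1.19 (adjusted p = 0.0127) and BRG3, a RING protein, by 0.67 (adjusted p = 0.016) on the log2 scale. PIF1 fell (log2 difference -0.84, adjusted p = 0.00339), as did PIF5 (-0.94, adjusted p = 0.0163). In recovery against 2 h, PIF1 rose and HFR1, TCP14 and BRG3 fell. In the PIF7-MYC line 3 of the 20 rose and none fell at 5 min, and 1 rose and 1 fell at 10 min. Of all genes, 2.58%, 4.19% and 3.8% were raised at 5, 10 and 30 min, and 1.31%, 2.24% and 1.03% were lowered. At 30 min in that line 7 of the 20 rose and none fell, with a median of 0.27 against 0.05 over all genes. BRG3 was among them at 67.3 ± 6.81 TPM at 30 min, against 18.6 ± 2.03 TPM in white light (log2 difference 1.80, adjusted p = 3.81e-06), and HFR1 at 22.7 ± 2.22 TPM, against 3.75 ± 0.63 TPM (adjusted p = 3.52e-05). HFR1 was the 1 of the 20 called for the light response in wild type of table III (log2 difference 1.72, adjusted p = 0.0494). In pif457 against wild type at 30 min HFR1, JAZ1, PIF4 and PIF5 were lowered, where 5.04% of all genes were. PIF4 and PIF5 are among the genes that the mutant's label names. PIF4, PIF5 and TCP14 were chosen after their values were seen.

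GASA14, of the gibberellin-responsive GASA peptides, rose at 2 h in wild type and was higher still in recovery. It stood at 232 ± 27.7 TPM in white light, 586 ± 91.7 TPM at 2 h and 1151 ± 104 TPM in recovery (SD, n = 3 each), with limma adjusted p = 0.00143 at 2 h and 0.000478 in recovery, both against white light, and 0.00923 for recovery against 2 h. GASA6 rose at 2 h, at 203 ± 11.0 TPM, against 92.3 ± 33.0 TPM in white light (adjusted p = 0.0179), and was at 86.9 ± 11.8 TPM in recovery, lower than at 2 h (adjusted p = 0.0194). Those 2 of 8 GASA genes measured in table I were the ones raised at 2 h. In the PIF7-MYC line the same pair rose at 30 min, at 244 ± 22.4 TPM for GASA6 and 80.6 ± 3.74 TPM for GASA14, against 120 ± 5.64 and 44.1 ± 3.23 TPM in white light. GASA14 was lowered in pif457 against wild type at 30 min (log2 difference -1.11, adjusted p = 0.0137), where 5.04% of all genes were lowered. Calls of list genes, those of GASA14, HFR1 and JAZ1 in this comparison among them, were not followed through the alternative settings.

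Of 10 genes known to be raised by DELLAs, 3 rose at 30 min in the PIF7-MYC line: GID1A, GA3OX1 and XERICO, a RING-H2 gene that promotes abscisic acid accumulation (log2 difference 0.65, limma adjusted p = 0.00316). Of all genes, 3.8% were raised and 1.03% lowered there. This list includes GID1A, GID1B and GID1C, and it shares GA3OX1 and GA20OX2 with the synthesis list. The rises of GID1A and GA3OX1 are therefore those already given above. None of the 10 was called by limma at 2 h in wild type, where 1 had an unadjusted p under 0.05. Nor was any called for the 30 min response in wild type of table III, where 2 did. The 10 partners and modifiers of the DELLA degradation machinery, which include the SCF subunits SKP1, CUL1 and RBX1 and the light-signalling ligase COP1 with SPA1, gave no call in any of 110 tests with limma, and 9 had an unadjusted p under 0.05. SKP1 had the smallest of those p-values in tables I and III, at 30 min in pif457, with 166 ± 8.94 TPM, against 229 ± 2.67 TPM in pif457 in white light (SD, n = 2 each; adjusted p = 0.427). Of 3 gibberellin transporters, SWEET13 was lowered at 30 min in the PIF7-MYC line, at 0.25 ± 0.08 TPM, against 0.64 ± 0.10 TPM in white light (adjusted p = 0.00687), and NPF3.1 at 10 min (adjusted p = 0.0164).

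Over all 29 libraries, each centred on its table, GAI ran closest to RGA (Pearson's r = 0.888) and RGL3 (r = 0.854) among the members, and GID1A to RGA (r = 0.624). Of 13545 other genes of at least 5 TPM, those most like GAI were BRH1 (r = 0.943), a brassinosteroid-responsive RING gene, the homeobox gene HAT2 (r = 0.933), and AT2G39870 (r = 0.919). AT1G01260 (r = 0.936), AT2G39870 (r = 0.920) and the auxin carrier AUX1 (r = 0.907) were most like RGA. GID1A was closest to the growth-regulating factor GRF3 (r = 0.935), the BES1 homologue BEH2 (r = 0.916) and JAZ3 (r = 0.910). At 30 min in the PIF7-MYC line GID1A lay at 53.2 to 63.4 TPM, far above its other libraries. How far its r values rest on that 1 group was not tested. GID1C and SLY1 had no neighbour as close, with AT4G19860 (r = 0.844) and AT1G19480 (r = 0.778) at the top. The libraries of a group share their light treatment and their table's scaling, so these values describe shared patterns across treatments.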

How the data were processed

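RNA-seq of 29 libraries and the event lists from ChIP were analysed, with 0 value columns unmapped. Per the submitters' processing notes, STAR 2.6.0c, RSEM 1.3.0 and Bowtie2 2.1.0 were used, on TAIR10. The RNA tables hold TPM computed by the authors. The event lists hold the authors' signal (event strength over the pooled comparison), ratio or fold over control, and -log10 of q, with events called by GEM per the deposited descriptions. Versions of GEM are not given in the sources used here. Raw counts were not used here, and depth cannot be recovered from TPM.

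log2(TPM + 1), with a pseudocount of 1, was analysed by limma 3.58.1 in R 4.3.3 (trended variance), with 1 fit per table over all its groups. Genes at 0 in every library were left out. Benjamini-Hochberg adjustment ran over all genes in each of 11 comparisons. The fit was also run on simulated data with normal noise and known changes in genes above 5 TPM. That run does not cover faults of single libraries or changes in transcripts below that level. No replicate block was used, since the labels do not say that replicate numbers mark a shared batch. Events were assigned to genes within 3 kb of the gene's span, and positions within 100 bp were taken as shared. The alternatives were a pseudocount of 0.1, a filter at a mean of 1 TPM, removal of ribosomal and organellar genes, median centring, fits of the compared groups alone, a replicate block, each library left out, and for events other distances and stronger events.

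The members and the gene lists (gibberellin synthesis, breakdown and transport, DELLA modifiers and partners, DELLA-bound factors, GASA peptides, DELLA-raised genes, and shoot, root, seed and flower markers) were chosen with earlier results of these data known. The text names all 9 members and, per list, at most 4 genes with the smallest p in table I or in table III against white light. Genes named outside this rule because a count was small, among them PIF4, PIF5 and TCP14, were chosen after their values were seen. CUL1 and COP1, also outside it, are named as examples of their list. Genes of the lists carry common names, some of which differ from the RefSeq symbol (there RGA is RGA1, PIF1 is PIL5 and COBL9 is SHV2). Other gene names are those of RefSeq's TAIR10.1 annotation, which held 32835 of the 33602 gene models.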

Additional observations from a re-analysis of the deposited data

How the results depend on the processing

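Over 99 member results (9 genes in 11 comparisons) and 1125 alternatives, 1039 kept their direction and their side of the threshold, 11 lost significance, 10 newly reached it and 65, spread over 31 results, changed sign. None of the 65 was called by limma in either fit. With centring, the log2 differences that changed sign became -0.00071 for RGL3 in recovery, -0.035 for RGA and -0.038 for SLY1 at 5 min, -0.017 for SLY1 at 10 min, -0.018 for SLY1 at 30 min, 0.11 for RGA, 0.12 for RGL1, 0.082 for GID1A and 0.041 for GID1B for the light response of pif457, -0.021 for GAI and -0.011 for RGA for pif457 against wild type in white light, and 0.040 for GID1B and 0.12 for SLY1 for the interaction. With ribosomal and organellar genes removed, they became -0.0087 for RGA and -0.010 for SLY1 at 5 min, 0.076 for RGA, 0.047 for RGL1 and 0.043 for GID1A for the light response of pif457, -0.018 for GAI and -0.0098 for RGA for pif457 against wild type in white light, and 0.016 for SLY1 for the interaction. Other sign changes came with a library left out. At 2 h, RGL2 ranged from -0.30 to 0.14 and SLY1 from -0.040 to 0.37. In recovery, GAI ranged from -0.051 to 0.13, RGL2 from -0.074 to 0.37, RGL3 from -0.16 to 0.27 and SLY1 from -0.15 to 0.33. In recovery against 2 h, SLY1 ranged from -0.33 to 0.18. At 5 min, RGA ranged from -0.043 to 0.065, RGL1 from -0.20 to 0.021, RGL2 from -0.0090 to 0.31 and SLY1 from -0.0058 to 0.052. At 10 min, SLY1 ranged from -0.029 to 0.11. For the light response of wild type in table III, GID1B ranged from -0.044 to 0.18 and SLY1 from -0.30 to 0.074. For the light response of pif457, RGA ranged from -0.34 to 0.17, RGL1 from -0.23 to 0.084, GID1A from -0.48 to 0.26, GID1B from -0.48 to 0.18 and GID1C from -0.30 to 0.40. For pif457 against wild type in white light, GAI ranged from -0.10 to 0.16, RGA from -0.11 to 0.19, GID1B from -0.21 to 0.0064 and SLY1 from -0.21 to 0.025. For pif457 against wild type at 30 min, GID1A ranged from -0.59 to 0.15, GID1B from -0.65 to 0.012 and GID1C from -0.31 to 0.39. For the interaction, GID1A ranged from -0.73 to 0.015, GID1B from -0.55 to 0.12, GID1C from -0.11 to 0.59 and SLY1 from -0.32 to 0.051.

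The fall of GAI in recovery against 2 h was 1 member in the reported fit and ranged from 0 to 1 with libraries left out. At 10 min in the PIF7-MYC line 1 member (GID1C) passed when only genes of mean TPM of at least 1 were tested. For pif457 against wild type at 30 min, where 1 member was lowered, the count was 0 with a pseudocount of 0.1, 2 with genes of mean TPM of at least 1, 3 with ribosomal and organellar genes removed, 1 with centring (GAI in place of RGL3), 0 with only the compared groups fitted, and 0 to 6 with libraries left out. Where a library was left out of table III, the lone library of its group is assumed to vary like the others. With a replicate block, RGL3 in that comparison had an adjusted p of 0.0807, so 0 members were lowered, and no other count of members called changed. Libraries of 1 number had a median residual correlation of -0.0087, -0.0579 and -0.0166 in tables I, II and III. Single pairs ran from -0.102 to 0.0613, from -0.288 to 0.331 and from -0.260 to 0.366. A median near 0 cannot exclude that some groups were paired.

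Over all genes, centring turned 51 raised and 1229 lowered in that comparison into 951 and 1381, and 17 to 7883 were lowered with libraries left out. At 30 min in the PIF7-MYC line 934 raised and 254 lowered became 563 and 592 with centring. At 5 min 634 and 321 became 545 and 699, and at 10 min 1030 and 552 became 885 and 1012. The 30 min response in wild type (29 raised, 0 lowered) became 250 and 128, that in pif457 (2 and 1) 85 and 89, the genotype difference in white light (3 and 4) 8 and 12, the interaction (2 and 8) 59 and 138, and recovery against white light (100 and 80) 161 and 141. In the same order of these 5, genes of mean TPM of at least 1 gave 486 and 133, 82 and 511, 125 and 107, 74 and 732, and 188 and 173, and removal of ribosomal and organellar genes gave 50 and 4, 9 and 11, 3 and 3, 2 and 13, and 196 and 132. Fits of the compared groups alone called 214 and 82 at 2 h, against 314 and 186, and 391 and 165, 54 and 75, and 342 and 81 at 5, 10 and 30 min in the PIF7-MYC line, and a replicate block called 356 and 200, 514 and 406, and 654 and 188 there. In the 5 comparisons above, fits of the compared groups alone gave 3 and 0, 27 and 114, 1 and 2, no value (the interaction needs all groups), and 50 and 40, a pseudocount of 0.1 gave 13 and 0, 6 and 15, 7 and 5, 2 and 3, and 146 and 117, and the block gave 19 and 0, 2 and 1, 4 and 4, 2 and 7, and 44 and 36. At 2 h the block left 119 lowered, and in recovery against 2 h it left 56 raised, against 91. Removal of ribosomal and organellar genes gave 433 raised and 1934 lowered for pif457 against wild type at 30 min, the filter on mean TPM 178 and 1554, and fits of the compared groups alone 176 and 1883. With a library left out, raised genes ranged from 174 to 319 at 2 h, from 29 to 81 in recovery, from 40 to 66 in recovery against 2 h, from 137 to 538, 47 to 2577 and 383 to 1257 at 5, 10 and 30 min, and from 9 to 34 for the wild type of table III. Lowered genes ranged from 79 to 174 at 2 h, from 22 to 84 in recovery, from 117 to 134 in recovery against 2 h, and from 81 to 266, 59 to 965 and 103 to 355 at 5, 10 and 30 min. In table III they ranged from 1 to 14 for the wild type response, from 0 to 5435 for the pif457 response (1 with all libraries), from 0 to 18 between the genotypes in white light and from 2 to 3106 for the interaction (8 with all libraries). Raised genes in the last 3 ranged from 2 to 76, 0 to 25 and 0 to 39, and for pif457 against wild type at 30 min from 2 to 142. Within 1 kb, events lay near 2, 4 and 3 members in the white light, IgG and 30 min lists, and within 5 kb near 3, 5 and 5, against 3, 5 and 4. Events above the median strength left 3 members with an event in the IgG list, against 5. The number of positions near members in all 3 lists, 4, was 3 when positions had to lie within 50 bp and 4 within 200 bp. The cause of these differences was not tested. Depth is unknown, so precision rests on 2 or 3 libraries per group.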
